A study of Arabidopsis thaliana with 8 samples.

Results

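The transcriptome described here is that of etiolated Arabidopsis thaliana seedlings in air, given by the 4 air arrays among the 8 arrays of the study. These arrays were chosen by their titles, which name air and no ethylene. Each was hybridised with material from total RNA of wild-type Col-0 seedlings that had germinated and grown for 72 h in darkness and were frozen at an age of 3 days. There were 2 experiments of 2 replicas each, so the arrays are called air 2-1 and air 2-2 (experiment 2) and air 1-1 and air 1-2 (experiment 1). Since no label states whether replicas were grown as separate cultures, the p-values below cover only the spread between these samples, which may be technical. The labels name no organ, and the arrays are read as whole seedlings.

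A seedling that germinates in darkness elongates its hypocotyl, keeps its cotyledons closed and lives on the oil and protein stored in the seed. Its plastids are etioplasts, which hold protochlorophyllide and wait for light to build thylakoids. Seedlings of the Brassicales also carry ER bodies, compartments of the endoplasmic reticulum packed with the beta-glucosidase PYK10, which acts on glucosinolates when cells are broken.

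Each array gave 1 intensity for each of 22810 probe sets, of which 64 were array controls. The other 22746 were ranked within each array, and percentile 100 is the brightest. Brightness is the mean of log2(intensity + 16) over the 4 arrays, given with its SD (n = 4). A probe set's intensity depends on its probes as well as on the transcript, so the order of genes given here is an order of brightness and not of transcript number. In RNA of whole seedlings, fewer cells of a type and less RNA per cell cannot be told apart. Of the ranked probe sets, 13513 named 1 gene, and after keeping the brightest probe set of each gene 13355 named genes were left, 1557 of them with a symbol and the others with a locus name only. Only 5 of the 20 brightest probe sets of all named 1 gene, so much of the brightest end is not named here. The median intensity was 933.1 on air 2-1 and 957.2 on air 2-2, against 909.65 on air 1-1 and 833 on air 1-2.

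The brightest named gene was PYK10. Its intensity was 64949.8 on air 2-1 and 72316.1 on air 2-2, against 169040 on air 1-1 and 142759 on air 1-2. It lay between percentiles 99.95 and 99.98 on every array, with a mean of 16.66 ± 0.69 on the log2 scale, although both arrays of experiment 1 were above both arrays of experiment 2. The jacalin-related lectins JAL34 and JAL33, which join PYK10 in large complexes when tissue is damaged, were among the 20 brightest as well. JAL34 had 65223.7 and 69607.3 in experiment 2, against 102586 and 95429.4 in experiment 1. JAL33 had 45471.3 and 53373.1 in experiment 2, against 83228.1 and 83122.7 in experiment 1. For these lectins too the experiments did not overlap, yet their percentiles moved by only 0.14 and 0.12 points over the arrays.

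Some other genes of the ER body were also bright. A list of 20 genes of the ER body and the PYK10 complex was written after the values had been seen. Of these, 8 were measured by a probe set naming 1 gene, and their median percentile was 99.2, beside 44.1 for all named genes. The 8 include PYK10, JAL34 and JAL33, already picked as among the 20 brightest, so this median is no independent result. NAI2, an ER body protein needed for its formation, had 38662.4, 37983.7, 40850.3 and 39633.9 on air 2-1, air 2-2, air 1-1 and air 1-2, an SD of 0.05 log2 units, and lay at percentile 99.1. The lectin JAL22 lay at percentile 99.2. NAI1, the bHLH transcription factor on which ER bodies depend, lay lower, at percentile 77.9. BGLU19 lay at percentile 39.4 and the lectin JAL23 at percentile 26.1, so the list did not lie at the bright end as a whole.

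**Figure D1:**
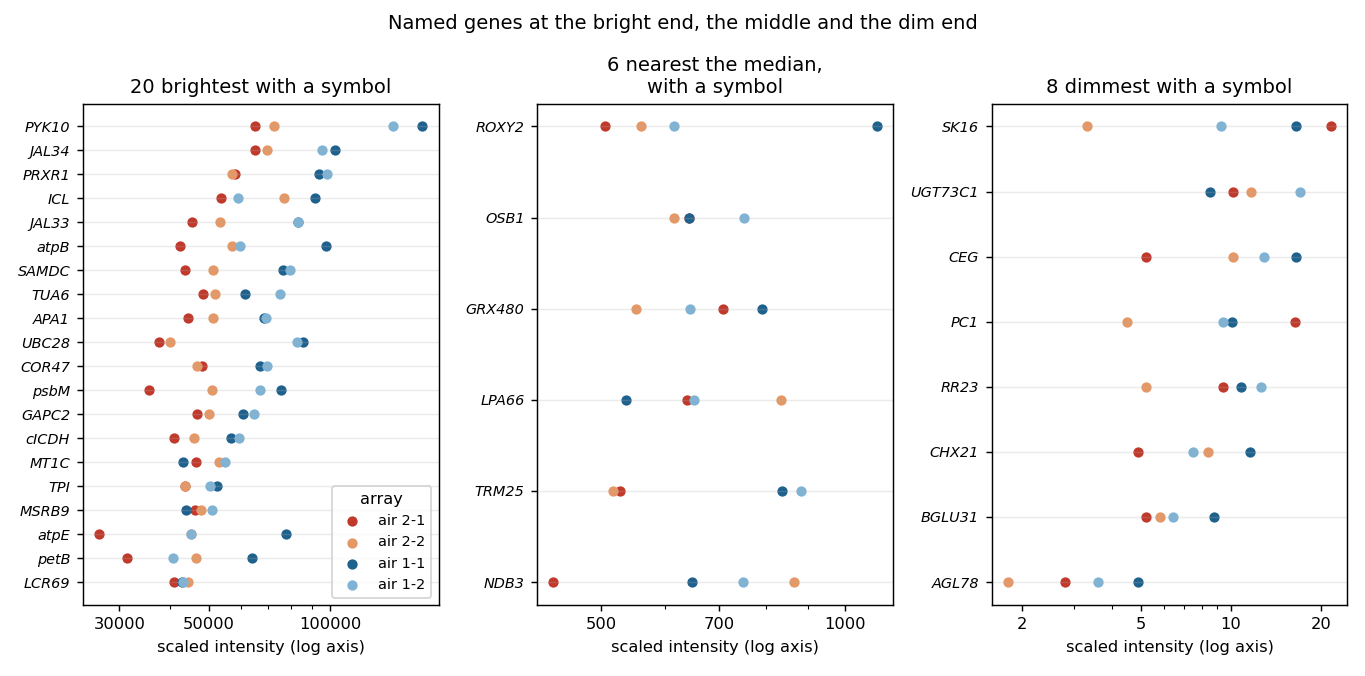
Scaled intensity (log axes) of named genes with a symbol on each of the 4 air arrays, at the bright end, the middle and the dim end. Each point is 1 array; PYK10 spans 64949.8 to 169040 and LCR69 spans 40891.8 to 44437.8, while the dimmest 8 lie between 1.8 and 21.7.

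The use of seed oil was represented at the bright end by ICL, isocitrate lyase of the glyoxylate cycle, which turns the carbon of fatty acids towards sugar. ICL had 53595.6 on air 2-1 and 76968.1 on air 2-2, against 91765.2 on air 1-1 and 58982.6 on air 1-2. The experiments overlapped, and the gene lay at percentile 99.8. AIM1, a multifunctional protein of peroxisomal beta-oxidation, lay at percentile 90.7, and the oil body lipase SDP1 at percentile 77.5. These were the 3 measured of 21 listed genes of oil mobilisation. Of 18 listed storage and oil body proteins, 3 were measured. The oleosin OLEO3, a coat protein of oil bodies, lay at percentile 88.0, the vicilin-like PAP85 at percentile 35.2 and AT1G03890 at percentile 16.2. OLEO3 had 5534.5 and 5640.1 in experiment 2, against 8019.5 and 7275.3 in experiment 1.

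Genes of the growing wall and the cytoskeleton ranged widely. All 7 measured alpha and beta tubulins, the subunits of microtubules, lay at percentile 76.3 or above, and their median percentile was 96.9. TUA6 was the brightest of them, with 48282 and 51834.3 in experiment 2 and 61612 and 74967.9 in experiment 1. Of 14 expansins, which loosen the wall, 3 lay in the brightest 10% of all probe sets (EXPA8 at percentile 97.7, EXPA9 at 97.0 and EXPA4 at 90.02) and 4 lay in the dimmest 30%. Of all 13355 named genes, 970 lay in the brightest 10% and 4777 in the dimmest 30%, so the dim share of the expansins was not above that of all. The 10 xyloglucan endotransglucosylases, which cut and rejoin xyloglucan, had a median percentile of 80.1. XTH19 had 22718, 22063.8, 12045.1 and 14754.3 on air 2-1, air 2-2, air 1-1 and air 1-2 and lay at percentile 96.3, whereas XTH29 lay at percentile 12.9. Members of the same wall family therefore stood at both ends of the range. The same held for the 15 endoglucanases of family GH9, of which GH9C2 lay at percentile 98.7 and GH9B11 at percentile 2.1.

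Some enzymes of central metabolism and of protein turnover were at the bright end too. The glycolytic enzymes GAPC2, a cytosolic glyceraldehyde-3-phosphate dehydrogenase, and TPI, triose phosphate isomerase, lay at percentiles 99.6 and 99.4. Of 32 listed glycolytic genes 3 were measured, and ENOC, the lowest of them, lay at percentile 85.9. GAPC2 had 46716.9 and 49937.1 in experiment 2 and 60609.4 and 64868.9 in experiment 1. SAMDC, which makes the decarboxylated S-adenosylmethionine used for polyamines, APA1, a vacuolar aspartic proteinase, and UBC28, a ubiquitin-conjugating enzyme, were among the 20 brightest. Of the 12 ubiquitin-conjugating enzymes measured, 3 were in the brightest 10% and 1 in the dimmest 30%, and their median percentile was 85.9. The 10 measured autophagy genes, most of them ATG8 proteins that coat autophagosomes, had a median percentile of 87.7, with 3 in the brightest 10% and none in the dimmest 30%. Of 8 aldehyde dehydrogenases, 7 lay in the brightest 10%, and ALDH22A1 lay at percentile 61.8. These families were listed by their symbols after the values had been seen. Among all 13355 named genes, 970 were in the brightest 10% and 4777 in the dimmest 30%.

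Among the other genes with a symbol at the bright end, chosen after their values were seen, was the defensin-family peptide LCR69. It had 40891.8 and 44437.8 in experiment 2 and 42999.2 and 43031.2 in experiment 1, an SD of 0.05 log2 units, the smallest among the 20 brightest genes with a symbol. The dehydrin COR47 had 48224.2 and 46848.9 in experiment 2, against 67054.1 and 69797.4 in experiment 1. The metallothionein MT1C had 46412 and 52993.3 in experiment 2 and 43045 and 54958.8 in experiment 1, and the experiments overlapped. Of the 20 brightest named genes, 10 had a locus name only, led by AT2G37130, AT4G29020, AT1G09310 and AT2G45180. AT2G37130 had 56924.5 and 55946.8 in experiment 2, against 137556 and 153351 in experiment 1. All of the 20 brightest were in the brightest 1% on each of the 4 arrays.

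The measured genes for the photosynthetic apparatus were bright in seedlings that had not seen light. Of 53 listed nuclear genes for photosynthetic complexes and the Calvin cycle, 12 were measured, and the list was added to those planned. Of the 12, 9 lay in the brightest 10% and none in the dimmest 30%, beside 970 and 4777 of 13355 named genes. Their median percentile was 94.5. LHCB4.1, a light-harvesting protein of photosystem II, had 17397.9 and 21927.8 in experiment 2, against 34546 and 27585.7 in experiment 1, at percentile 97.9. RCA, Rubisco activase, lay at percentile 96.4, and the lowest of the 12, LHCB4.3, at percentile 66.4. Chlorophyll synthesis stood near them. PORB, the protochlorophyllide oxidoreductase that needs light to act, had 27523.5 and 35069.7 in experiment 2 and 32141.7 and 28451.2 in experiment 1, so that the experiments overlapped, and it lay at percentile 98.7. CHLM, a methyltransferase of the magnesium branch, GSA1, which makes aminolevulinate, and HEMB1, which joins aminolevulinate to porphobilinogen, lay at percentiles 91.9, 87.3 and 86.0.

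Of the genes encoded in the plastid, 69 of 129 were measured. Of these, 24 lay in the brightest 10% and none in the dimmest 30%, beside 970 and 4777 of 13355 named genes. Their median percentile was 82.9. The brightest were atpB and atpE of the ATP synthase, psbM of photosystem II and petB of the cytochrome b6f complex. The gene atpB had 42512.8 and 56904.9 in experiment 2 and 97248.4 and 59816.8 in experiment 1. By function, the median percentile was 91.6 for the 6 ATP synthase genes, 89.4 for the 20 photosystem genes, 81.9 for the 15 ribosomal protein genes, 70.3 for the 4 RNA polymerase genes, 64.5 for the 10 genes of the NADH dehydrogenase-like complex and 63.1 for the 6 genes of the cytochrome b6f complex. Within the NADH dehydrogenase-like complex the values ran from ndhI at percentile 99.1 to ndhF at percentile 34.3. The 15 measured mitochondrial genes had a median percentile of 41.8 and none lay in the brightest 10%.

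**Figure D2:**
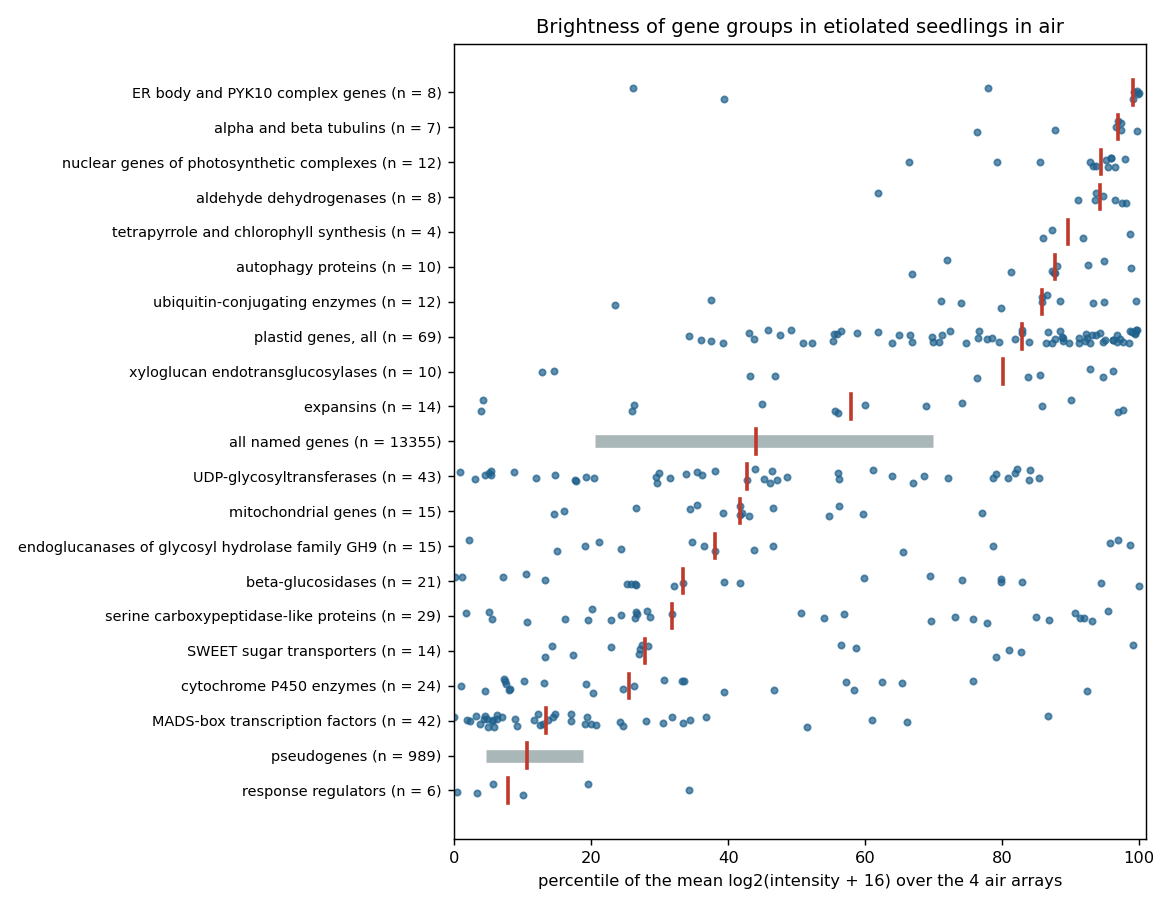
Percentile of brightness of the measured members of each gene group over the 4 air arrays (blue points, 1 gene each), with the group's median as a red line; grey bars give the middle 50% of all named genes and of pseudogenes. The median was 99.2 for genes of the ER body, 82.9 for plastid genes, 44.1 for all named genes, 13.4 for MADS-box genes and 10.6 for pseudogenes. The ER body group includes PYK10, JAL34 and JAL33, which were picked as among the 20 brightest.

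The middle of the range held genes of many kinds. The 6 named genes nearest the median of all named genes were AT3G51110, AT1G26620, AT5G65240, AT5G40270, AT5G13470 and AT1G04350. AT1G26620 had 682.8 and 687.5 in experiment 2, against 590.4 and 695.8 in experiment 1. AT5G65240 had 912.6 and 867.3 in experiment 2, against 717.3 and 337.6 in experiment 1, and its percentile moved by 16.05 points over the arrays. Genes with a symbol nearest the median, picked after their values were seen, were the glutaredoxins ROXY2 and GRX480, the organellar DNA-binding protein OSB1, the pentatricopeptide repeat protein LPA66, TRM25 and NDB3. OSB1 had 641.6 and 615.2 in experiment 2 and 642.2 and 750 in experiment 1. The UDP-glycosyltransferases, which attach sugars to hormones and secondary metabolites, were spread around this level. Their 43 measured members had a median percentile of 42.7, with none in the brightest 10% and 16 in the dimmest 30%. The median of all 13355 named genes was 44.1, with 970 in the brightest 10% and 4777 in the dimmest 30%, so the dim share was near that of all.

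Some families lay mostly at the dim end. Of 42 measured MADS-box transcription factors, the family best known from flower and ovule development, 33 lay in the dimmest 30% and none in the brightest 10%, with a median percentile of 13.4, and AGL26 was the brightest at percentile 86.7. AGL78 was among the 8 dimmest named genes, with 2.8 and 1.8 in experiment 2 and 4.9 and 3.6 in experiment 1, on a probe set shared with other sequences. Not all regulators were dim: among genes matched by symbol or synonym, the median percentile was 84.8 for 7 bHLH, 68.0 for 14 bZIP and 58.0 for 7 WRKY transcription factors. Lists made in this way cover their families in part. Of 6 response regulators of cytokinin and related phosphorelays, 5 lay in the dimmest 30%, and RR23 had 9.4 and 5.2 in experiment 2 and 10.8 and 12.6 in experiment 1. Of 244 listed cytochrome P450 genes, 24 were measured, most of them of the CYP71B subfamily. CYP51G2 and CYP71B27 among them are annotated as transcribed pseudogenes. Of the 24, 13 lay in the dimmest 30% and CYP71B6 alone lay in the brightest 10%. Of all 13355 named genes, 4777 lay in the dimmest 30%. Without detection calls, a value this low can hold mostly background, and no order is read among these genes.

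In the SWEET family of sugar transporters 1 member was in the brightest 10%, while the beta-glucosidases were spread over the whole range. The sucrose exporter SWEET11 had 25278.5 and 19664.7 in experiment 2, against 69484 and 76123.5 in experiment 1, and lay at percentile 99.2. The median percentile of the 14 measured SWEET genes was 27.9, and 8 of them lay in the dimmest 30%. SWEET14 had 14.4 and 31.2 in experiment 2 and 115.5 and 267 in experiment 1. Of 21 beta-glucosidases, PYK10 and BGLU16 lay in the brightest 10% and 9 lay in the dimmest 30%, beside 4777 of 13355 named genes. Between them lay members such as BGLU25 at percentile 82.9 and BGLU46 at percentile 74.1. BGLU31 had 5.2 and 5.8 in experiment 2 and 8.8 and 6.4 in experiment 1.

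Pseudogenes gave a scale for the dim end. The 989 named pseudogenes had a median percentile of 10.6, and 95% of them lay below percentile 30.8, which is an intensity of 275 on average. Of the 12292 protein-coding named genes, 8384 (68.2%) were brighter than that level. Pseudogenes made up 19.5% of the named genes in the dimmest 30% (931 of 4777), 0.612% in the middle 20% (16 of 2613) and none of the 970 in the brightest 10%. The brightest of them, AT1G35612, had 1600 and 1924.9 in experiment 2, against 3358.3 and 5831.2 in experiment 1, at percentile 73.9.

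The labelled material was compared with markers of pollen and seed, and of single tissues and cell types. Measured were 2 of 7 listed pollen markers, 1 of 6 embryo and seed coat regulators and 1 of 3 shoot meristem markers. For the guard cell lineage 2 of 3 were measured, and for root hairs and root epidermis 2 of 7. The pollen genes AT5G45880 and MGH3, a histone of the male germ line, lay at percentiles 12.6 and 7.88, the seed coat gene BAN at percentile 3.27 and the stem cell peptide gene CLV3 at percentile 12.6. The stomatal lineage regulators FMA and SPCH lay at percentiles 26.9 and 18.2. By their means all of these were in the dimmest 30%, as were 4777 of 13355 named genes. On air 2-2 alone, FMA and SPCH lay at percentiles 31.3 and 31.4. SPCH had 231.2 and 299.1 in experiment 2, against 41.4 and 32.8 in experiment 1. The root hair expansins EXPA18 and EXPA7 lay at percentiles 74.2 and 55.6, with 3743, 2874.2, 2271 and 2585 for EXPA18 on air 2-1, air 2-2, air 1-1 and air 1-2. The listed markers of flower organs, endodermis, shoot epidermis and vascular tissue had no probe set that named 1 gene and were not analysed here.

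Genes of ethylene signalling ranged from the middle to the bright end. Of 24 listed genes, 5 were measured. EIN3, the transcription factor that carries the ethylene signal, had 12272.8 and 12126.7 in experiment 2 and 17200 and 13182.7 in experiment 1, at percentile 94.9. RTE1, which acts with the receptor ETR1, and its homologue RTH lay at percentiles 75.6 and 88.0. The F-box gene ETP2, whose product targets EIN2, lay at percentile 42.9, and AT1G12010 at percentile 63.98. None of the 5 passed the limma test between experiments described below, which 15.9% of all probe sets passed. A p that misses the threshold does not show that their values were equal.

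The order of brightness was close to the same on all 4 arrays. Over the 22746 probe sets, Spearman's rho was 0.983 between air 2-2 and air 2-1 and 0.965 between air 1-2 and air 1-1. Between arrays of different experiments it was 0.954 to 0.958. These are descriptions over probe sets that share their arrays. The median probe set moved by 2.66 percentile points between the arrays of experiment 2 and by 3.51 points between those of experiment 1, and by 4.66 to 4.95 points between arrays of different experiments.

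Stability depended on where a gene lay. Of the 2275 probe sets in the brightest 10%, 1790 (78.7%) were in that tier on every array, as were 5296 of 6823 (77.6%) in the dimmest 30%. In the middle 20%, 2188 of 4549 (48.1%) stayed within the tier, which has a border on both sides. The median percentile range over the 4 arrays was 1.99 points in the brightest tier, 9.72 points in the middle and 13.5 points in the dimmest tier. The median SD of the log2 values was 0.23, 0.33 and 0.81 in the same tiers. Among named genes, 2771 moved by less than 5 percentile points and none by more than 50. By decile, the spread was widest in the second decile from the dim end, with a median SD of 1.02.

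**Figure D3:**
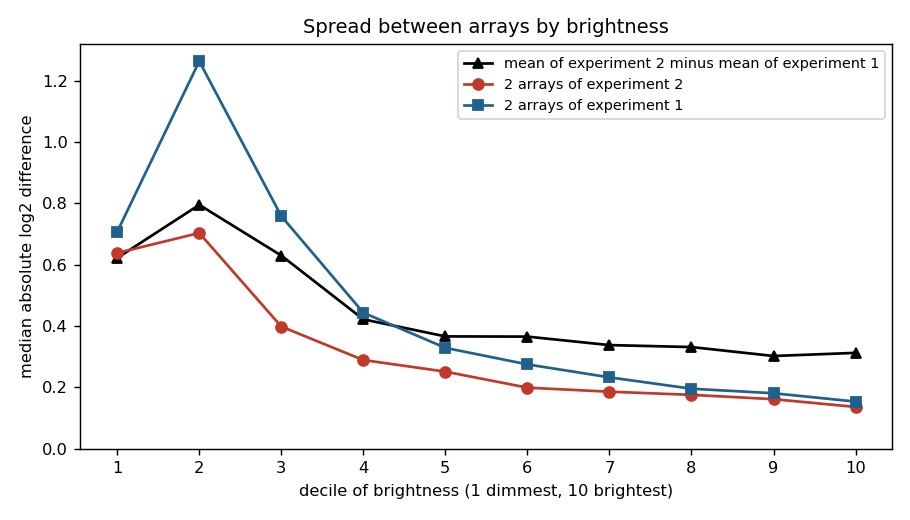
Median absolute log2 difference by decile of brightness (1 is the dimmest, 10 the brightest), between the mean of experiment 2 and the mean of experiment 1 (black), between the arrays of experiment 2 (red) and between those of experiment 1 (blue). In the brightest decile the median was 0.31 between experiments, 0.14 between the arrays of experiment 2 and 0.15 between those of experiment 1.

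The named gene with the widest range was AT1G48660, which moved by 49.9 percentile points. It had 1006.9 and 1981.1 in experiment 2, against 109.4 and 112.6 in experiment 1, so that the experiments did not overlap. Nor did they for AT1G34510, which had 3928.9 and 3696.9 in experiment 2 against 322.8 and 678.1 in experiment 1. AT5G13620 and AT2G31150 behaved otherwise. AT5G13620 had 226.3 and 7.8 in experiment 2 and 73.4 and 691.3 in experiment 1, and AT2G31150 had 322.3 and 1467.4 in experiment 2 and 467.2 and 84 in experiment 1. In both, the arrays of each experiment lay far apart and the experiments overlapped.

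The plastid genes differed between the arrays of an experiment and moved together. All 69 were brighter on air 2-2 than on air 2-1, and all 69 were brighter on air 1-1 than on air 1-2. Among all named genes, 4195 of 13355 (31.4%) met both conditions. The median log2 difference of the plastid genes was 1.16 for air 2-2 minus air 2-1 and 1.21 for air 1-1 minus air 1-2, beside 0.02 and 0.06 for all named genes. The range over the 69 genes was 0.01 to 2.68 in experiment 2 and 0.02 to 2.56 in experiment 1. The pattern was noticed in these values and has no test, since each experiment has 1 array at each level.

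Single plastid genes show the size of this difference. The gene rbcL, the large subunit of Rubisco, had 1948.2 on air 2-1 and 7603.1 on air 2-2, against 7369.8 on air 1-1 and 3784.2 on air 1-2. The gene psbA, the D1 protein of photosystem II, had 917.8 and 5962.6 in experiment 2, against 3489.7 and 1404.7 in experiment 1. The gene rpoB, a subunit of the plastid RNA polymerase, had 483.9 and 637.4 in experiment 2 and 724.1 and 256.9 in experiment 1. In all 3, air 2-2 and air 1-1 were the higher arrays of their experiments. The median percentile of the plastid genes was 75.1 on air 2-1 and 89.1 on air 2-2, against 89.4 on air 1-1 and 78.1 on air 1-2.

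The pattern covered every functional group of plastid genes measured. The median differences of the NADH dehydrogenase-like complex were 1.56 in experiment 2 and 1.19 in experiment 1, those of the ribosomal proteins 1.14 and 1.35, and those of the RNA polymerase 1.26 and 1.32. Nuclear genes for photosynthetic complexes followed it in part, with 9 of 12 brighter on both arrays and medians of 0.27 and 0.35. Mitochondrial genes met it in 8 of 15 cases, with medians of 0.45 and 0.77. Of the named genes above percentile 60, 40 exceeded 0.7 in both differences, and 35 of these were plastid genes. What sets air 2-2 and air 1-1 apart from air 2-1 and air 1-2 was not tested.

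**Figure D4:**
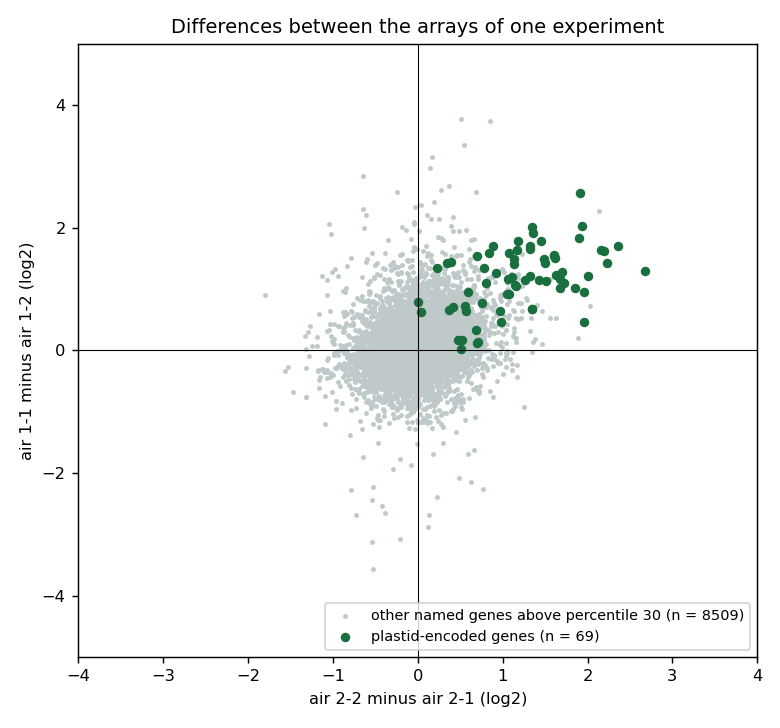
Log2 difference between the arrays of experiment 2 (air 2-2 minus air 2-1, horizontal) and of experiment 1 (air 1-1 minus air 1-2, vertical) for the 69 plastid-encoded genes (green) and 8509 other named genes above percentile 30 (grey). All 69 plastid genes lie above 0 on both axes, with medians of 1.16 and 1.21.

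The 2 experiments were then compared over genes, to show which part of the baseline differed between them beyond the replicas. With limma, 15923 probe sets were tested after the dimmest 30% were left out. At a Benjamini-Hochberg adjusted p under 0.05, 1427 (8.96%) were higher and 1112 (6.98%) lower in experiment 2, together 2539 (15.9%). A difference of 2-fold or more was reached by 521 of the higher and 378 of the lower probe sets on the log2(intensity + 16) scale, which understates the change of dim genes. The median difference over all probe sets tested was 0.05. The share of calls that were higher in experiment 2 was 56.2% with the deposited scaling, 39.1% with each array centred on its median and 51.5% after quantile normalization. Centring on the median moved the median of all probe sets by −0.12, so the balance of higher and lower calls rests on the scaling. Without air 2-1 the counts were 458 higher and 606 lower, without air 2-2 they were 436 and 593, and without air 1-2 they were 943 and 718.

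Among the genes lower in experiment 2, the largest decrease was that of AT4G37220. It had 1709.4 and 1847 in experiment 2, against 35800.7 and 45230.5 in experiment 1, a difference of −4.49 ± 0.16 (SE) with a limma adjusted p of 1.22e-05. AT3G15450 had 11734.8 and 8867.3 in experiment 2, against 77775.3 and 73752.7 in experiment 1, a difference of −2.89. The other large decreases were AT4G25580, AT1G72060, AT5G21020, AT5G53740, AT5G56100 and MCCA, at −2.08 to −2.69. In each of the 8 the experiments did not overlap, which their choice as the largest called decreases makes likely. Each kept its call under every alternative tried for it.

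Lower genes with a known product, picked after their values were seen, included steps of amino acid breakdown. MCCA, the biotin-carrying subunit of 3-methylcrotonyl-CoA carboxylase in leucine breakdown, had 3719.3 and 3047.2 in experiment 2, against 15821.5 and 12870.3 in experiment 1 (limma adjusted p = 0.000582). IVD, isovaleryl-CoA dehydrogenase of the same pathway, had 4665 and 4338 in experiment 2, against 13384.4 and 10092 in experiment 1, a difference of −1.37. MGL, methionine gamma-lyase, had 8851.1 and 9564.8 in experiment 2, against 27648.6 and 24667.2 in experiment 1, a difference of −1.50. Of 10 tested genes of branched-chain amino acid and methionine breakdown, 5 fell (MCCA, IVD, MGL, MCCB and ETFQO) and none rose, with a median difference of −0.69, beside 6.98% lower over all probe sets tested. This list was written because MCCA and MGL had been seen to fall, so its count is no independent evidence. The call of ETFQO was lost without air 2-2, without air 1-1 and without an intensity trend, with adjusted p-values up to 0.0776.

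Other genes with a symbol fell too, of which the following were picked after their values were seen. SWEET11 fell by 1.71, as given by the values above (limma adjusted p = 0.000649). AKINBETA1, a beta subunit of the energy-sensing kinase SnRK1, had 7315.2 and 5389.9 in experiment 2, against 20915.4 and 26068.8 in experiment 1, a difference of −1.89. SIS, a serine-rich protein induced by salt, had 7390.9 and 10276 in experiment 2, against 44466.6 and 29327.2 in experiment 1, a difference of −2.05. Of the 12 nuclear photosynthetic genes, 4 fell (LHCB4.1, LHCB4.2, PRK and PSBY) and LIL3:1 rose, beside 6.98% lower and 8.96% higher over all probe sets tested. PRK, phosphoribulokinase of the Calvin cycle, had 9806.3 and 11574.6 in experiment 2, against 30110.3 and 21287.5 in experiment 1. Of the 69 plastid genes, 5 fell and none rose, a share of fallen genes near the 6.98% over all probe sets. Of these 5, psbE differed by −1.69, and the calls of psbM and psbJ were lost without air 2-1 and without air 1-1, that of psbJ also without air 1-2. Of 10 expansins tested, 3 fell (EXPA8, EXPA4 and EXPA16) and none rose, beside the same 6.98% lower and 8.96% higher. Several of these calls rested on single arrays: that of LHCB4.1 was lost without air 2-1 and without air 1-1, that of PSBY without air 2-1, air 2-2 or air 1-1, that of LIL3:1 without air 2-2 or air 1-2, and that of EXPA8 without air 2-2, air 1-1 or air 1-2.

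Among the genes higher in experiment 2, the largest increase was that of AT4G21020. It had 1000.6 and 1183.2 in experiment 2, against 122.6 and 22.6 in experiment 1, a difference of 3.92 ± 0.59 (SE) with a limma adjusted p of 0.00491. Without air 2-2 the adjusted p was 0.0516. AT1G48660 and AT1G34510, described above by their range, rose by 3.49 and 2.98. The others were AT3G49960, AT3G15570, UGT78D1, HOS3-1 and AT3G17520, at 2.46 to 2.95. In each of the 8 the experiments did not overlap, which their choice as the largest called increases makes likely. AT3G49960 and HOS3-1 had adjusted p-values of 0.0401 and 0.0487 and lost the call under 5 and 6 of 11 alternatives. AT3G15570 lost it without air 2-1 and without air 2-2.

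Higher genes with a known product included wall enzymes and proteins of late embryogenesis. XTH32 had 6658.8 and 6868.4 in experiment 2, against 1525.9 and 1349.9 in experiment 1, a difference of 2.22 (limma adjusted p = 0.000393). The endoglucanase GH9B8 had 6890.8 and 6188 in experiment 2, against 1864.5 and 2033 in experiment 1, a difference of 1.74. LEA18, of the late embryogenesis abundant proteins that protect drying seeds, had 2739.2 and 3950.7 in experiment 2, against 654.6 and 772.3 in experiment 1, a difference of 2.18. All 3 measured genes with LEA in their symbol rose (LEA18, LEA4-5 and AtLEA4-1), beside 8.96% of all probe sets tested. Genes of this kind under other names were not counted, so no change of the whole family is read from them. AtLEA4-1, with an adjusted p of 0.0323, lost its call under 7 of 11 alternatives. The LEA list was likewise written after LEA18 had been seen to rise.

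UDP-glycosyltransferases rose in 5 of 27 tested cases and fell in none, beside 8.96% higher and 6.98% lower over all probe sets. UGT78D1, a flavonol rhamnosyltransferase, had 961.7 and 1286.7 in experiment 2, against 127.5 and 261.8 in experiment 1, a difference of 2.50. UGT85A2, UGT71C1, UGT74B1, which acts in glucosinolate synthesis, and UGT74D1 rose by 0.97 to 1.15. The calls of UGT78D1 and UGT74D1 were lost without air 2-2. Of 7 tested NETWORKED proteins, which link actin to membranes, 4 rose (NET1A, NET1B, NET1D and NET4B), a list written after NET1B had been seen to rise. NET1B had 1902.2 and 2095.7 in experiment 2, against 570.8 and 442.4 in experiment 1. The calls of NET1A and NET4B were lost without air 2-2, with adjusted p-values up to 0.172 and 0.102 over the alternatives.

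**Figure D5:**
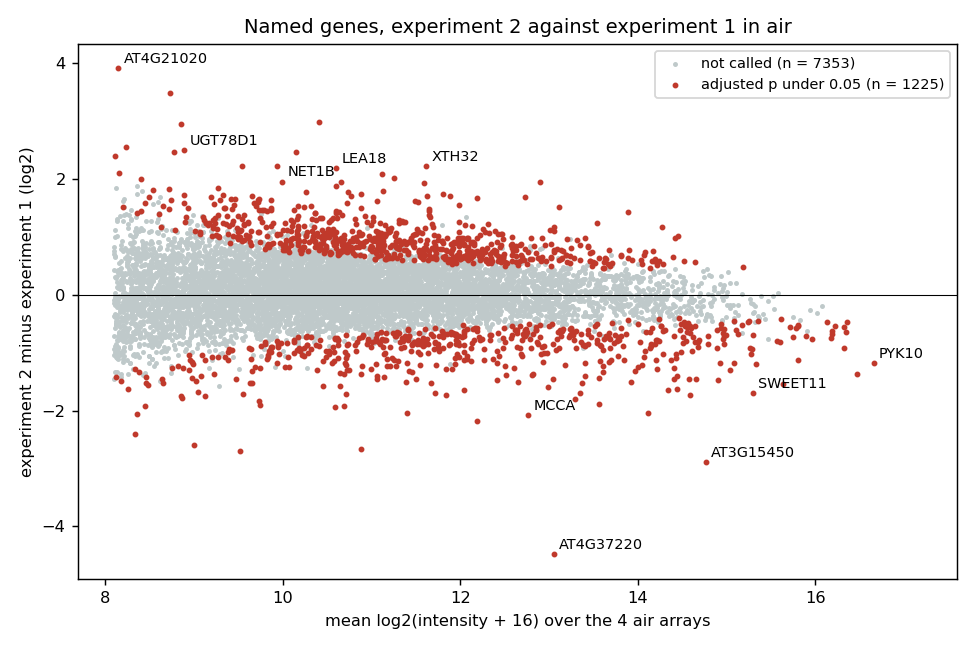
Log2 difference between experiment 2 and experiment 1 in air against the mean log2(intensity + 16), for 8578 named genes tested; red points passed a limma adjusted p under 0.05. With the deposited scaling the brightest genes lie below 0, PYK10 at −1.18, which many did not after quantile normalization, and AT4G37220 lies lowest at −4.49.

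At the bright end nearly all differences had one sign with the deposited scaling, and not after quantile normalization. Of the 228 probe sets in the brightest 1%, 218 were below 0, 138 were called lower and 1 higher in experiment 2, and their median difference was −0.55. Of the 20 brightest named genes, 15 were called lower and none higher, with a median of −0.63. Over all probe sets tested, 6.98% were called lower and 8.96% higher. Leaving out air 2-1 ended the calls of AT4G29020, JAL34, AT1G78040, AT3G48140, AT5G44020 and APA1, and leaving out air 1-2 ended the same calls except that of JAL34. Without air 1-1 those of AT4G29020, AT1G78040 and AT5G44020 were lost. With no intensity trend 12 of the 15 calls were lost, all but those of PYK10, AT2G37130 and UBC28. The next decile did not show the same balance: in the brightest decile 470 probe sets were lower and 190 higher, and in the next 188 were lower and 315 higher. The top of the intensity scale itself differed between the experiments, with 99th percentiles of 32298.5 and 34247.6 in experiment 2 and 41980.2 and 42289 in experiment 1.

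After quantile normalization, which gives every array the same set of values, 26 probe sets of the brightest 1% were lower and 27 higher, with a median of 0.02. Of the 20 brightest named genes, 2 were then lower (AT2G37130 and UBC28) and 2 higher (AT4G29020 and AT5G20290). PYK10 differed by −1.18 with an adjusted p of 0.00143 with the deposited scaling, and by −0.11 with an adjusted p of 0.484 after quantile normalization. For JAL34, whose difference was −0.55 with the deposited scaling, the sign turned to 0.31. The change of SWEET11 and AT4G37220 kept its sign and its call under both. Whether the shorter range of bright values in experiment 2 came from the seedlings or from the arrays cannot be told apart by these values.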

How the data were processed

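Total RNA of 4 air samples was hybridised to single-colour Affymetrix arrays. The authors deposited 1 linear intensity per probe set and array. After the highest and lowest 2% of values were removed, the mean intensity was 2500.2 on every array, so the deposited values appear scaled to a common target; detection calls, the probe summary and the scanner software are not stated in the sources used here. The number of arrays limits the precision, bright values may be saturated and dim ones mostly background. Intensities were converted to log2(intensity + 16) and ranked within each array with Python 3.11.15, pandas 2.3.3 and scipy 1.17.1.

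Genes were taken from the platform annotation and updated through a RefSeq table (TAIR10.1, 13436 probe sets matched), and only probe sets with 1 gene were named: 503 listed several genes and 8730 were not listed. The table holds no gene descriptions, so lists defined by family names were matched to symbols and synonyms, and most families are covered in part. No sequence is printed. Plastid genes were matched by the chromosome of the RefSeq table. The measured mitochondrial genes were matched by a pattern in their symbols, among genes to which that table gave no gene type.

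Experiment 2 was compared with experiment 1 in R 4.3.3 with limma 3.58.1 on log2(intensity + 16), with lmFit, eBayes and a trend in intensity, over the 4 air arrays only. The dimmest 30% by mean were left out. Benjamini-Hochberg adjustment ran over the remaining 15923 probe sets. An exact permutation test of 2 against 2 arrays could not pass the threshold. The fit was tested on simulated data. Named were the 20 brightest genes, the 6 nearest the median, the 8 dimmest, the 8 with the widest percentile range, the 8 largest increases and decreases, and members of gene lists. The members and lists were chosen with earlier results of these data known. Alternatives were the pseudocount, the filter, the scaling, the replica number as a block, the trend, the ranking and leaving out arrays.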

Additional observations from a re-analysis of the deposited data

Results flagged for a closer look

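The values of 206 genes, and the medians of the 51 lists with 3 or more measured members, were examined for 1 array that lay apart from the other 3. The gap to the nearest other array was divided by the whole range and set against Dixon's 95% critical value. Chance marks about 1 in 20 groups, and 4 of 206 genes and 1 of 51 lists were marked. AT1G26620, one of the 6 genes nearest the median, had its lowest value on air 1-1, at 590.4, with 682.8 to 695.8 on the other 3 arrays. TUB7, a beta tubulin, had its lowest value on air 2-2, at 5640.5, with 6616.8 to 6792.7 on the others. SGT, counted among the UDP-glycosyltransferases, had its highest value on air 2-2, at 5243.3, with 4000.5 to 4086.5 on the others. GH9B11, the dimmest measured endoglucanase, had its highest value on air 2-1, at 107.5, with 2.8 to 7.6 on the others, all of them at the dim end. The median percentile of the 3 measured subunits of vacuolar ATPases was highest on air 2-2, at 93.6, with 93.3 to 93.4 on the others. The last difference is small in size.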

How the results depend on the processing

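Of the 1427 probe sets higher and 1112 lower in experiment 2, the counts became 895 and 705 with no filter on low values and 451 and 372 with no intensity trend. With the replica number as a replicate block they were 624 and 593. The deviations of arrays with the same number from their experiment means correlated at −0.26 over probe sets, so they did not move together. With 2 arrays in each experiment, this cannot tell whether same-numbered arrays were handled together, which the labels do not state. With crossed numbers, chosen after seeing the data, the counts were 3245 and 2273. Leaving out 1 array gave 436 to 1535 higher and 593 to 858 lower probe sets, where the lone array of an experiment is assumed to vary like the others. Other pseudocounts, a filter of 50% and both other scalings kept each count within 1.5 times. With quantile normalization the sign turned for AT4G29020 (0.46), AT1G09310 (0.16), JAL34 (0.31), AT1G78040 (0.19), AT3G48140 (0.10), AT3G16370 (0.039), AT5G44020 (0.21), AT5G20290 (0.37), APA1 (0.027), COR47 (0.066), cICDH (0.13), MSRB9 (0.49) and LCR69 (0.44), all at the bright end. Of the 167 genes followed through this scaling, it turned for no other one called under either scaling. Signs of the remaining genes were not followed one by one. Ranked over probe sets that name 1 gene, which are fewer, 1056 bright, 1266 middle and 2791 dim probe sets kept their tier, and 864 did with a tier of the brightest 5%. The lowest rank correlation stayed at 0.945 or above. Of the 20 brightest genes, 17 to 20 were the same under every alternative. Of the 8 dimmest, 4 to 6 were the same without 1 array, 1 from experiment 2 alone and 3 from experiment 1 alone, so the order at the dim end is not a stable one. All 69 plastid genes kept their pattern after quantile normalization and 65 did with median centring. For genes named, calls were lost most often with no intensity trend (38 of 167).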

Other observations

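Families that the text has not yet described also had members at both ends of the range. Of 11 RALF-like peptides, which are secreted signals of cell growth, 4 lay in the brightest 10% and 4 in the dimmest 30%. Of all 13355 named genes, 970 lay in the brightest 10% and 4777 in the dimmest 30%, so the share of dim RALF-like peptides was near that of all. RALFL22 lay at percentile 95.4 and RALFL28 at percentile 5.74. Of 29 serine carboxypeptidase-like proteins, 5 lay in the brightest 10% and 14 in the dimmest 30%, and their median percentile was 31.8, beside 44.1 for all named genes. The 11 prenylated RAB acceptors, membrane proteins of vesicle traffic, were bright as a group, with a median percentile of 87.3 and 3 in the brightest 10%, PRA8 being the highest at percentile 98.0. Of the 7 measured genes listed as bHLH by symbol or synonym, 2 lay in the brightest 10% and 2 in the dimmest 30%. ILR3, bHLH115 and BHLH101, which act in iron homeostasis, lay at percentiles 94.9, 91.9 and 15.9. These families were picked after their values were seen.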
